A study of Mus musculus with 24 samples.

Results

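The genes described here are the drug- and lipid-metabolising enzymes whose symbols begin with Cyp1 to Cyp4 (cytochrome P450 monooxygenases), Ugt (UDP-glucuronosyltransferases) or Sult (cytosolic sulfotransferases). A gene was included when at least 50 reads were counted for it over the 24 libraries. Of 135 symbols with these names among the 43280 symbols counted, 14 pseudogene rows were left out and 67 fell under the minimum, 29 of them with no read at all, which left 54 members. These were 36 P450 genes with 472504 reads, 12 UGT genes with 159470 reads and 6 sulfotransferase genes with 92442 reads. The least counted members were Cyp2j5 with 52 reads, Cyp1a1 with 75 and Cyp2c67 with 79, and the closest symbols left out were Ugt2b1 with 48 reads and Cyp2d10 with 45.

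The RNA came from epithelial cells sorted from the small intestine of 6 male Lgr5-EGFP C57BL/6 mice, in which green fluorescence reports the stem cell gene Lgr5. NRG1 (neuregulin 1, a ligand of ErbB receptors) was given to 3 mice as 7.5 µg intraperitoneally every 12 h for 5 days, the other 3 received PBS vehicle on the same schedule, and tissue was taken on day 6. Mice numbered 1 and 2 were aged 15 weeks in each treatment, and those numbered 3 were aged 11 weeks; the labels call the mice littermates and do not say how these ages fit 1 litter. Each mouse gave 1 library of each of 4 populations, so that a group of population and treatment held 3 libraries: Lgr5high-CD24low cells (labelled crypt base columnar stem cells), Lgr5med-CD24low cells (immediate progenitors), Lgr5low-CD24low cells (subsequent progenitors) and Lgr5neg-CD24neg cells (differentiated cells). All cells were CD31- and CD45- and excluded propidium iodide, and the villi had been scraped away before dissociation, so that the Lgr5neg gate held differentiated cells that remained with the crypts.

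Between 11176264 and 23343499 reads were counted per library, of which 37.6% to 62.4% lay on the 2 mitochondrial ribosomal RNA genes. Levels are given as CPM, read counts scaled to library size by the trimmed mean of M values (TMM) over the 24 libraries, and 3 reads corresponded to 0.112 to 0.247 CPM. Lgr5 averaged 178 ± 45.7 CPM in NRG1 and 171 ± 62.0 CPM in PBS Lgr5high cells, and 1.43 ± 0.139 CPM in NRG1 and 1.30 ± 0.286 CPM in PBS Lgr5neg cells (SD, n = 3 each). A list of 10 enterocyte markers ran the other way, with summed levels of 31714 to 48352 CPM in NRG1 and 44241 to 74128 CPM in PBS Lgr5neg cells, against 832 to 1451 CPM in NRG1 and 1126 to 1586 CPM in PBS Lgr5high cells. The Lgr5 gene, whose reporter set the gates, and the enterocyte markers thus ran in opposite directions between the end gates. A list of 7 goblet markers peaked between them. Its sum averaged 758, 8097, 21842 and 3037 CPM in NRG1 and 1131, 13425, 23983 and 6839 CPM in PBS mice, from Lgr5high to Lgr5neg. The enteroendocrine list was highest in Lgr5low cells too, and the part of these cells in the member values was not tested.

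P450 enzymes of families 1 to 4 insert oxygen into drugs, steroids, fatty acids and eicosanoids, using electrons that P450 oxidoreductase (Por) delivers from NADPH. UGTs then attach glucuronic acid, supplied as a nucleotide sugar by Ugdh, and sulfotransferases attach sulfate from the donor that the Papss enzymes make; both steps make a compound more soluble and easier to export. In the gut these enzymes are best known from absorptive enterocytes, where they limit the entry of ingested chemicals, and many of their genes are switched on by the nuclear receptors PXR (Nr1i2), CAR (Nr1i3), FXR (Nr1h4) and PPAR-alpha (Ppara).

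Summed over the 54 members, the level increased along the sorted order in both treatments. In NRG1 mice the sum averaged 427 ± 43.0 CPM in Lgr5high, 535 ± 48.1 in Lgr5med, 947 ± 161 in Lgr5low and 5302 ± 764 in Lgr5neg cells, and in PBS mice 476 ± 23.7, 608 ± 35.1, 1272 ± 213 and 6202 ± 1742 CPM (SD, n = 3 each). P450 genes made up most of it: their sum was 3557 ± 622 CPM in NRG1 and 4617 ± 1473 CPM in PBS Lgr5neg cells, against 956 ± 55.9 and 871 ± 131 CPM for the UGT genes and 789 ± 137 and 714 ± 142 CPM for the sulfotransferase genes. In such bulk libraries, fewer cells of a type and less RNA per cell cannot be told apart.

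**Figure D1:**
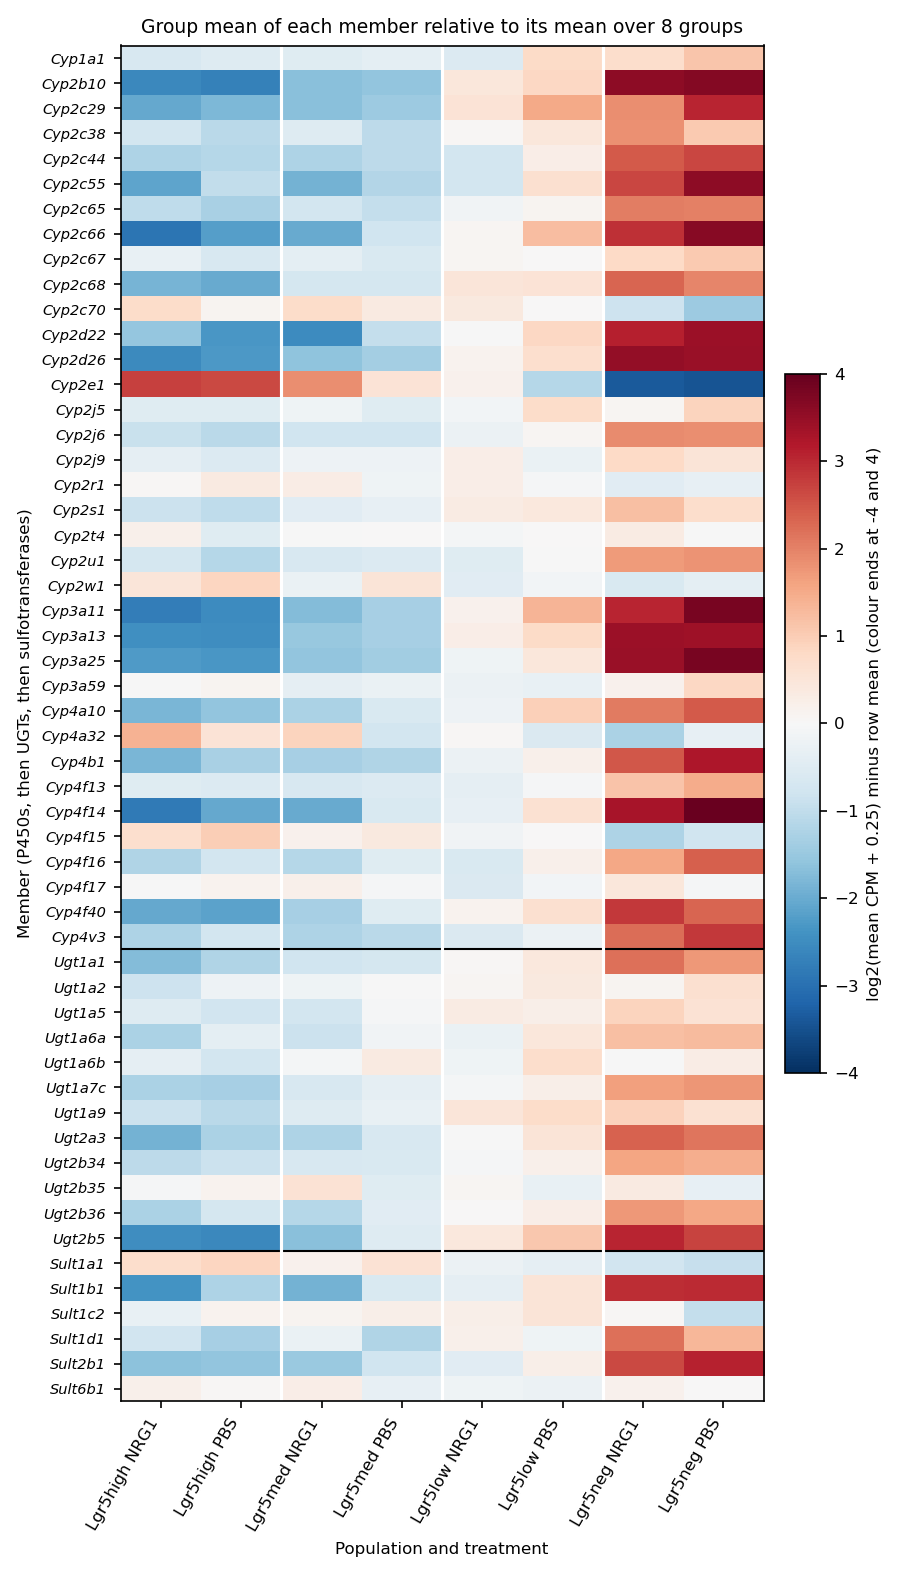
Mean level of each of the 54 members in the 8 groups as log2(mean CPM + 0.25), minus that member's average over the groups; columns run from Lgr5high to Lgr5neg with NRG1 left of PBS, rows are P450, UGT and sulfotransferase genes, and red is above and blue below the member's own average. Most rows turn from blue at the left to red in the Lgr5neg columns, and Cyp2e1 runs the opposite way.

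The first comparison asks how these genes differ along the sorted order in vehicle-treated mice, and the NRG1 mice give the same comparison in libraries that are not shared with it. Called means an adjusted p under 0.05 over all genes tested by edgeR. In Lgr5neg against Lgr5high cells, 37 of the 50 members tested were called higher and 5 lower in NRG1 mice, where 32% of the 14307 genes tested were called higher and 33.5% lower. In PBS mice 37 of 51 were called higher and 5 lower, against 32% and 35.4% of 14203 genes. The median log2 difference was 3.02 over the members and -0.08 over all genes in NRG1 mice, and 3.13 and -0.09 in PBS mice.

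Of the members called higher, 36 were called in both treatments, which is 97.3% of either list; Ugt1a2 was called in NRG1 mice alone and Ugt1a6b in PBS mice alone. These 2 calls were lost in 5 of 6 and 3 of 6 fits that left out 1 library, with an adjusted p of up to 0.286 without Lgr5neg replicate 2 and up to 0.209 without Lgr5neg replicate 1. Of those called lower, 4 were called in both, 80% of either list, and no member was called in opposite directions. By class, 24 of 32 P450 genes tested were called higher and 4 lower in NRG1 mice, and 24 of 33 higher and 3 lower in PBS mice. Among UGT genes 10 of 12 were called higher and none lower in each treatment. Among sulfotransferases 3 of 6 were called higher and 1 lower in NRG1 mice, and 3 higher and 2 lower in PBS mice.

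The 10 enterocyte markers were called higher in Lgr5neg cells in the same fits, 10 of 10 in each treatment, with a median log2 difference of 6.33 in NRG1 and 6.12 in PBS mice. Of 11 immune cell markers, 6 of 8 tested were called higher in NRG1 and 8 of 10 in PBS mice, with summed levels of 58.0 to 394 CPM in NRG1 and 103 to 327 CPM in PBS Lgr5neg cells, and Cd2 was at 0 in all 24 libraries. Goblet, enteroendocrine and tuft lists gave 5 of 7, 2 of 6 and 2 of 5 called higher in NRG1 mice, with 1 goblet and 1 tuft marker lower, and 5 of 7, 2 of 6 and 0 of 5 in PBS mice, with 1 tuft marker lower, and no mesenchymal marker passed the filter. Of 6 Paneth markers, 4 were called lower in NRG1 and 6 in PBS mice, with a median log2 difference of -1.89 and -2.55. Mitochondrial ribosomal RNA took 49.5% to 62.4% of reads in the Lgr5neg libraries and 37.6% to 47.1% in the others. The part of these cell types and of RNA composition in the member differences was not tested. With both ribosomal genes left out of the table, the same 42 members were called in NRG1 mice and the same 42 in PBS mice.

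**Figure D2:**
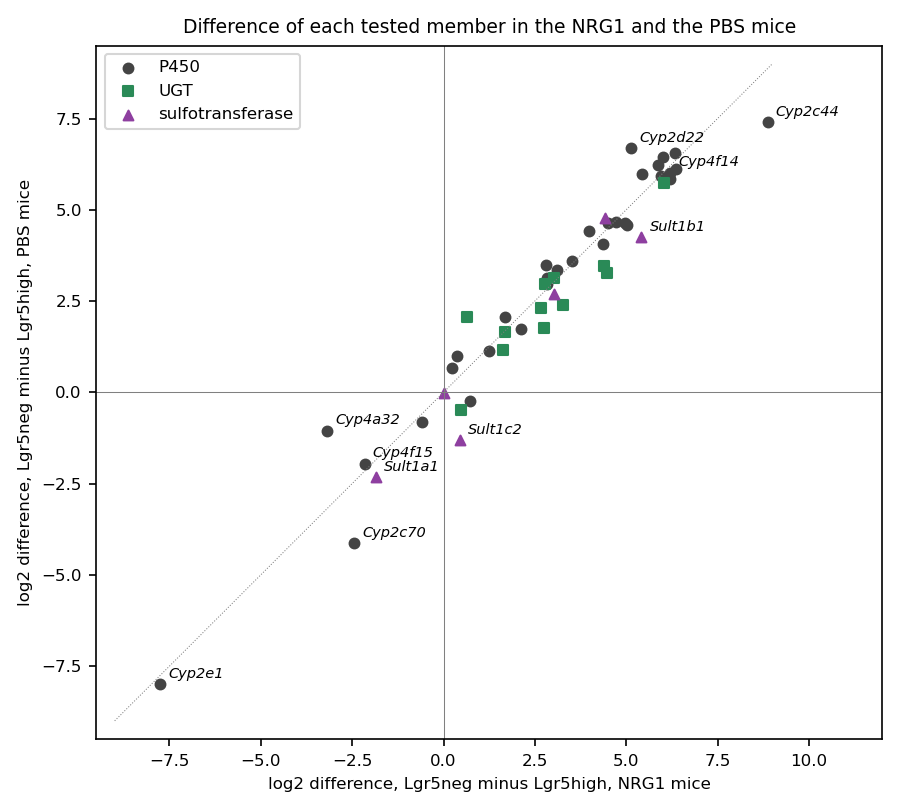
Log2 difference of Lgr5neg minus Lgr5high cells for the 50 members tested in both treatments, in NRG1 mice (x axis) and PBS mice (y axis), which share no library; the dotted line marks equal values. Points run from Cyp2e1 at -7.76 and -8.00 to Cyp2c44 at 8.87 and 7.41, whose values rest on 0 NRG1 and 1 PBS Lgr5high reads. Among the points off the line are Cyp2d22 (5.14 and 6.69) and Cyp2c70 (-2.44 and -4.14).

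Several steps carried the increase. In PBS mice 11 of 51 members were called higher and 2 lower in Lgr5med against Lgr5high cells, against 6.72% and 2.44% of the genes tested. Then 27 were called higher and 1 lower in Lgr5low against Lgr5med cells (5.59% and 2%), and 32 higher and 3 lower in Lgr5neg against Lgr5low cells (25.3% and 30.6%). The last of these steps gave 33 of 50 higher and 3 lower in NRG1 mice, against 26.6% and 30.4% of genes. Calls at the first step were the least firm: leaving out 1 library at a time gave 6 to 13 of them, beside 4.31% to 9.67% of all genes.

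In PBS mice 9 members were called higher at each of the 3 steps, namely Cyp2c68, Cyp2d22, Cyp3a13, Cyp4f14, Cyp4f40, Ugt2a3, Ugt2b5, Sult1b1 and Sult2b1, against 1.92% of the genes tested, and Cyp2e1 was called lower at each, against 0.62%. The first step was not firm for 5 of the 9: with 1 library left out it was lost in 5 of 6 fits for Cyp3a13, Sult1b1 and Ugt2a3 and in 4 of 6 for Cyp2d22 and Sult2b1, with an adjusted p of up to 0.131, 0.235, 0.294, 0.131 and 0.144. For Cyp2c68, Cyp4f14, Cyp4f40 and Ugt2b5 it was kept in all 6. Of the 76-base stretches of Ugt2b5 and Cyp2c68, 30.1% and 28.1% occur in other genes. Their reads, here and below, may have been split between copies. Within single mice, 14 members had a higher level at every step in all 6 animals and 1, Cyp2e1, a lower one, against 4.29% and 3.72% of the genes tested over the 24 libraries. The highest mean lay in Lgr5neg cells in both treatments for 37 of the 51 members tested over the 24 libraries, against 34.9% of the 15045 genes tested, and in Lgr5high cells for 5, against 23.2%. Those 5 were Cyp2e1, Cyp2w1, Cyp4a32, Cyp4f15 and Sult1a1.

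Among the P450 genes of drug oxidation, Cyp3a13, a mouse member of the Cyp3a subfamily that oxidises many drugs and steroids, had 5.78, 12.2 and 3.84 CPM in NRG1 and 6.52, 10.1 and 4.63 CPM in PBS Lgr5high cells. In Lgr5med cells it had 11.6, 16.7 and 14.0 CPM in NRG1 and 15.6, 17.1 and 15.9 CPM in PBS mice, and in Lgr5low cells 52.2, 30.8 and 64.6 CPM in NRG1 and 82.1, 46.9 and 79.7 CPM in PBS mice. In Lgr5neg cells it reached 589, 329.6 and 396 CPM in NRG1 and 572, 293 and 434 CPM in PBS mice. Every Lgr5neg library lay above every library of the other gates. The log2 difference of Lgr5neg over Lgr5high cells was 5.96 ± 0.50 in NRG1 mice (SE, edgeR adjusted p = 1.91e-06) and 5.94 ± 0.36 in PBS mice (edgeR adjusted p = 9.65e-09). Without Lgr5high replicate 2 the NRG1 value was 6.56.

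Cyp2b10, a target of the receptor CAR, had 186, 108 and 121 CPM in NRG1 Lgr5neg cells, against 0.595, 4.35 and 0.213 CPM in NRG1 Lgr5high cells. In PBS mice it had 222, 89.0 and 139 CPM in Lgr5neg cells, against 0.638, 3.08 and 0.953 CPM in Lgr5high cells. The groups did not overlap, and replicate 2 was the highest Lgr5high library in either treatment. The log2 differences were 6.34 ± 0.98 in NRG1 mice (edgeR adjusted p = 0.000398) and 6.55 ± 0.63 in PBS mice (edgeR adjusted p = 9.2e-06), and without Lgr5high replicate 2 they were 8.44 and 7.55. Cyp3a11 and Cyp3a25, further drug-oxidising Cyp3a enzymes, differed by 6.00 ± 0.79 and 5.87 ± 0.67 in NRG1 mice and by 6.44 ± 0.86 and 6.23 ± 0.48 in PBS mice. Their Lgr5high libraries of replicate 2 also stood highest, at 4.96 and 5.19 CPM in the NRG1 mouse and 4.45 and 4.49 CPM in the PBS mouse. Without those libraries the differences of Cyp3a11 and Cyp3a25 were 7.07 and 6.80 in NRG1 mice and that of Cyp3a25 was 6.95 in PBS mice, and without Lgr5neg replicate 1 that of Cyp3a11 was 5.39 in PBS mice. The enterocyte sum was highest in the same Lgr5high libraries, at 1451 CPM in the NRG1 and 1586 CPM in the PBS mouse, and its part in these values was not tested. Cyp3a59 was called in no comparison.

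The Cyp2c genes, several of which encode enzymes that oxidise arachidonic acid, gave 7 called higher and 1 lower of 8 tested in each treatment. Cyp2c66 differed by 6.36 ± 0.51 in NRG1 and 6.11 ± 0.51 in PBS mice, Cyp2c55 by 4.96 ± 0.32 and 4.63 ± 0.50, and Cyp2c65 by 3.11 ± 0.14 and 3.35 ± 0.24 (log2, Lgr5neg over Lgr5high, SE), and Cyp2c66 by 7.28 in NRG1 mice without Lgr5high replicate 2. Cyp2c44, known as an epoxygenase, had 118 reads in the 3 Lgr5neg libraries of NRG1 mice and 0 in the 3 Lgr5high libraries, at least 70.6-fold higher against a floor of 3 reads over the group. In PBS mice it had 133 reads against 1, a ratio of 246 with a counting interval of 43.5 to 9801. Both Cyp2d genes were called, Cyp2d22 with 5.14 ± 0.61 in NRG1 and 6.69 ± 0.46 in PBS mice. In NRG1 Lgr5high cells Cyp2d22 had 0.170, 1.46 and 0.171 CPM, with 38 of its 46 reads in replicate 2, and without Lgr5high replicate 2 the differences were 6.96 and 7.34. Cyp2j6, a P450 of mouse small intestine, differed less, by 2.84 ± 0.23 and 2.96 ± 0.18.

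Cyp2s1, an extrahepatic P450 inducible through the aryl hydrocarbon receptor, gained most of its log2 difference before the last gate. It had 115, 128 and 148 CPM in NRG1 Lgr5neg cells, against 85.8, 59.7 and 70.4 CPM in NRG1 Lgr5low cells. In PBS mice it had 84.7, 92.9 and 102 CPM in Lgr5neg cells, against 98.0, 63.9 and 65.4 CPM in Lgr5low cells. These groups stood apart in NRG1 mice and overlapped in PBS mice. The last step was called in NRG1 mice (0.88) and not in PBS mice (0.31, edgeR adjusted p = 0.0938), and whether the step differed between treatments was not tested.

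The Cyp4 genes encode omega-hydroxylases of fatty acids and eicosanoids. Cyp4f14, an omega-hydroxylase of leukotriene B4, had the highest level per kb of exon of any member in Lgr5neg cells, 395 CPM per kb in NRG1 and 619 CPM per kb in PBS mice. It had 868, 804 and 1193 CPM in NRG1 Lgr5neg cells, against 9.74, 21.1 and 9.39 CPM in NRG1 Lgr5high cells. In PBS mice it had 1888, 1109 and 1498 CPM in Lgr5neg cells, against 20.2, 34.0 and 15.6 CPM in Lgr5high cells. The log2 difference was 6.20 ± 0.38 in NRG1 (edgeR adjusted p = 9.33e-09) and 6.02 ± 0.29 in PBS mice (edgeR adjusted p = 2.25e-11), and its step from Lgr5high to Lgr5med cells in PBS mice was called in all 6 fits that left out 1 library (1.45 ± 0.24 with all libraries). Cyp4v3, the mouse counterpart of human CYP4V2, changed mainly at the last gate: 552, 324 and 511 CPM in NRG1 Lgr5neg cells, against 58.4, 57.4 and 82.4 CPM in NRG1 Lgr5low cells, and 862, 500.4 and 751 CPM in PBS Lgr5neg cells, against 90.1, 68.7 and 93.9 CPM in PBS Lgr5low cells. Its log2 difference there was 2.83 in NRG1 and 3.07 ± 0.21 in PBS mice. Cyp4b1 differed by 4.49 ± 0.43 in NRG1 and 4.64 ± 0.28 in PBS mice between Lgr5neg and Lgr5high cells, and Cyp4a10, a fatty acid hydroxylase under PPAR-alpha, by 4.73 and 4.67 (5.36 in NRG1 mice without Lgr5high replicate 1).

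**Figure D3:**
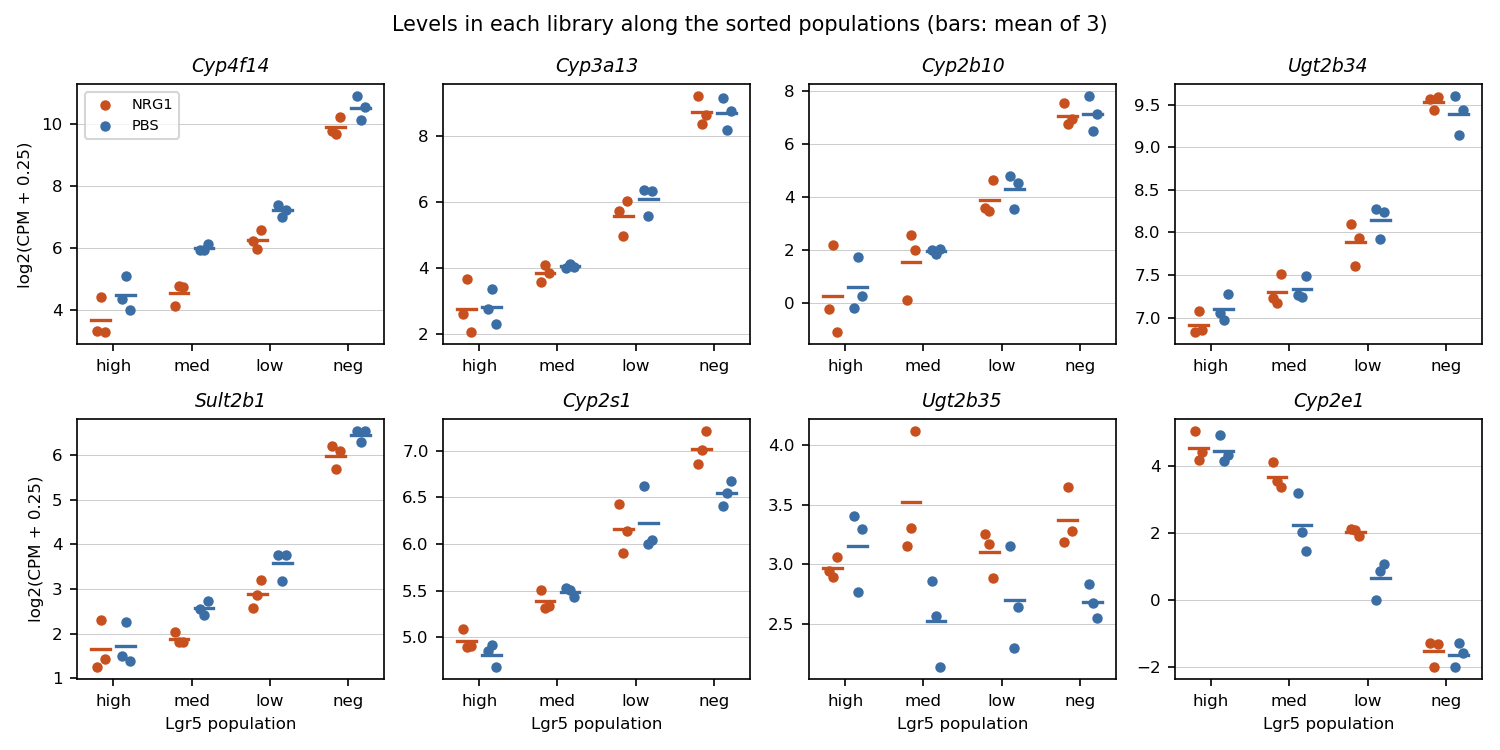
Level of 8 members in every library as log2(CPM + 0.25), by population from Lgr5high to Lgr5neg, with NRG1 points left of PBS points and bars at the mean of 3 mice; the vertical range differs between panels. Cyp4f14, Cyp3a13 and Cyp2b10 climb over all gates, Ugt2b34 climbs from an already high level, Ugt2b35 has no common direction, and Cyp2e1 descends.

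Among the UGT genes, Ugt2b34, of the subfamily that conjugates steroids and drugs, was the member with the highest level per kb in the 3 Lgr5-positive gates. It gave 28.1 CPM per kb in NRG1 and 31.9 CPM per kb in PBS Lgr5high cells, and 28.4% and 28.9% of the summed CPM of all 54 members there. It had 755, 693 and 768 CPM in NRG1 Lgr5neg cells, against 113, 134 and 115 CPM in NRG1 Lgr5high cells. In PBS mice it had 774, 566 and 695 CPM in Lgr5neg cells, against 133, 125 and 155 CPM in Lgr5high cells. The Lgr5neg and Lgr5high libraries did not overlap, with log2 differences of 2.66 ± 0.16 in NRG1 (edgeR adjusted p = 2.34e-10) and 2.31 ± 0.16 in PBS mice (edgeR adjusted p = 1.38e-10). Ugt2b5 differed by 6.03 ± 0.39 and 5.72 ± 0.42 and Ugt2a3 by 4.38 ± 0.23 and 3.47 ± 0.20. Ugt1a1, which conjugates bilirubin, differed by 4.48 ± 0.46 and 3.26 ± 0.36. The 7 Ugt1a symbols share their last exons, so that the authors' counting could split or drop their reads and each of these values is uncertain.

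Ugt2b35 lies 93.9 kb from Ugt2b34 on chromosome 5 and was not called between the end gates. It had 8.87, 12.3 and 9.45 CPM in NRG1 Lgr5neg cells, against 7.44, 7.19 and 8.11 CPM in NRG1 Lgr5high cells, and 6.89, 6.12 and 5.60 CPM in PBS Lgr5neg cells, against 10.4, 6.55 and 9.57 CPM in PBS Lgr5high cells. Neither difference was called (0.49 ± 0.24, edgeR adjusted p = 0.0871, in NRG1 mice and -0.49 ± 0.26, edgeR adjusted p = 0.106, in PBS mice). Between these gates it had 8.63, 9.62 and 17.1 CPM in NRG1 and 7.01, 5.67 and 4.14 CPM in PBS Lgr5med cells, and 9.31, 8.75 and 7.12 CPM in NRG1 and 8.67, 4.66 and 5.98 CPM in PBS Lgr5low cells. Replicate 3 was the highest library in NRG1 and the lowest in PBS Lgr5med cells.

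Of the sulfotransferases, Sult1b1, which sulfates thyroid hormones and phenols, Sult1d1, known for catecholamines, and Sult2b1, which sulfates cholesterol and other hydroxysteroids, were called higher in Lgr5neg than in Lgr5high cells in both treatments. Sult2b1 had 73.4, 51.1 and 67.5 CPM in NRG1 Lgr5neg cells, against 2.13, 4.69 and 2.43 CPM in NRG1 Lgr5high cells. In PBS mice it had 92.6, 77.9 and 92.2 CPM in Lgr5neg cells, against 2.60, 4.57 and 2.36 CPM in Lgr5high cells. The groups did not overlap, with differences of 4.42 ± 0.27 and 4.78 ± 0.23. Sult1b1 differed by 5.41 ± 0.23 in NRG1 and 4.25 ± 0.20 in PBS mice, and Sult1d1 by 3.03 ± 0.22 and 2.68 ± 0.18. Sult1a1, a phenol sulfotransferase, was lower in Lgr5neg cells, by -1.85 ± 0.55 in NRG1 (edgeR adjusted p = 0.00696) and -2.33 ± 0.66 in PBS mice (edgeR adjusted p = 0.00442, and a difference of -3.95 without Lgr5neg replicate 2). Sult1c2 was called lower in PBS mice (-1.31 ± 0.49, edgeR adjusted p = 0.0235) and not in NRG1 mice (0.44). The PBS call was lost without Lgr5high replicate 1, Lgr5neg replicate 2 or Lgr5neg replicate 3, with an adjusted p of up to 0.109, and the difference was -2.12 without Lgr5neg replicate 1.

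The member that ran most strongly against the rest was Cyp2e1, the P450 known for oxidising ethanol and acetaminophen in liver. It had 32.3, 17.7 and 20.9 CPM in NRG1 and 29.5, 17.2 and 19.5 CPM in PBS Lgr5high cells. In Lgr5med cells it had 16.9, 11.5 and 9.98 CPM in NRG1 and 8.92, 3.80 and 2.49 CPM in PBS mice, and in Lgr5low cells 4.05, 3.97 and 3.49 CPM in NRG1 and 0.750, 1.57 and 1.87 CPM in PBS mice. In Lgr5neg cells 4 reads were counted in the 3 NRG1 and 3 reads in the 3 PBS libraries. Each gate lay below the one before it in every mouse, and the ratio of Lgr5high to Lgr5neg cells was 238 in NRG1 mice, with a counting interval of 92.7 to 874, and 275 in PBS mice, with one of 94.0 to 1336. In PBS mice the steps were -2.12 ± 0.41 (edgeR adjusted p = 0.00514), -1.86 ± 0.46 (edgeR adjusted p = 0.0251) and -4.02 ± 0.96 (edgeR adjusted p = 0.00267), and the second was lost without Lgr5med replicate 1, Lgr5low replicate 1 or Lgr5low replicate 2, with an adjusted p of up to 0.105. Without Lgr5med replicate 1 the first 2 steps were -2.81 and -1.18, and without Lgr5neg replicate 2 the last was -4.95. Of 3 hepatocyte markers, Alb averaged 0.0128 CPM in NRG1 and 0.0278 CPM in PBS Lgr5high cells and Serpina1a was at 0 there. The third, Ttr, moved with Cyp2e1 at the last gate, averaging 1.11 CPM in NRG1 and 1.63 CPM in PBS Lgr5neg cells, against 23.4 CPM in NRG1 and 28.2 CPM in PBS Lgr5high cells. It averaged 31.9 CPM in NRG1 and 25.9 CPM in PBS Lgr5low cells, where Cyp2e1 lay between 0.750 and 4.05 CPM, and its part in the result was not tested.

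Other P450 genes lower in Lgr5neg than in Lgr5high cells were Cyp4f15 and Cyp2c70 in both treatments and Cyp4a32 in NRG1 mice. Cyp4f15 differed by -2.16 ± 0.38 in NRG1 and -1.95 ± 0.44 in PBS mice. Cyp2c70, the mouse liver enzyme that forms muricholic acids, had 7 reads in NRG1 Lgr5neg against 73 in NRG1 Lgr5high cells and 1 read in PBS Lgr5neg against 40 in PBS Lgr5high cells; the ratio of Lgr5high to Lgr5neg was 5.81 with a counting interval of 2.68 to 15.0 in NRG1 mice and 21.6 with one of 3.66 to 874 in PBS mice. All 7 NRG1 Lgr5neg reads lay in replicate 3. Without that library the NRG1 ratio was at least 9.13, against a floor of 3 reads over the group, and the NRG1 call was lost without Lgr5high replicate 1, Lgr5neg replicate 1 or Lgr5neg replicate 2, with an adjusted p of up to 0.0695. Cyp4a32 was called in NRG1 mice (-3.20 ± 0.52, edgeR adjusted p = 3.62e-05, and -4.12 without Lgr5neg replicate 1) and not in PBS mice (-1.05, edgeR adjusted p = 0.0598).

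Cyp4f14 had the highest level per kb of exon in Lgr5neg cells, and Cyp2e1 fell most from Lgr5high to Lgr5neg cells. The windows before the starts of these 2 genes are shown. Both are the 250 bases before the RefSeq start on GRCm38.p6, written 5′ to 3′ on the gene's strand, chr17:32917343-32917592 on the minus strand for Cyp4f14 and chr7:140763569-140763818 on the plus strand for Cyp2e1. Capitals mark matches to 7 short motifs searched on both strands. Cyp2e1 carries a TATAAA box starting 31 bases before its start, and none of the 7 motifs has its letters in the Cyp4f14 window.
Cyp4f14: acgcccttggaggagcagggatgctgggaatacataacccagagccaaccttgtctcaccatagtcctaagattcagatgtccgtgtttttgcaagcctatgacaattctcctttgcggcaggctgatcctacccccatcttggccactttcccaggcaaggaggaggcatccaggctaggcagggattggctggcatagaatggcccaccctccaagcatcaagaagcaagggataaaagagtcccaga
Cyp2e1: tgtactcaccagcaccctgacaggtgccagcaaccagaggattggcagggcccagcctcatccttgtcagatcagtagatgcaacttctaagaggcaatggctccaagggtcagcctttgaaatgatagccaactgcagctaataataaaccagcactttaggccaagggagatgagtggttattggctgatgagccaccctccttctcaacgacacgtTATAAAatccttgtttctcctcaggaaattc

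The second comparison asks how NRG1 changed these genes within each population. In Lgr5high cells 1 of 44 members tested was called higher and 2 lower, against 3.18% and 4.15% of 13322 genes tested. In Lgr5med cells 3 of 45 were called higher and 7 lower, against 3.76% and 5.79% of 13394 genes. In Lgr5low cells none of 47 was called higher and 2 lower, against 0.143% and 0.3% of 13326 genes, and in Lgr5neg cells none of 41 was called, against 0.328% of 11908 genes in either direction. The median log2 difference over the members tested was -0.17, -0.14, -0.40 and -0.04 in Lgr5high, Lgr5med, Lgr5low and Lgr5neg cells, beside 0.01, 0.01, -0.0007 and 0.01 over all genes. Across the 4 populations 11 members were called at least once.

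**Figure D4:**
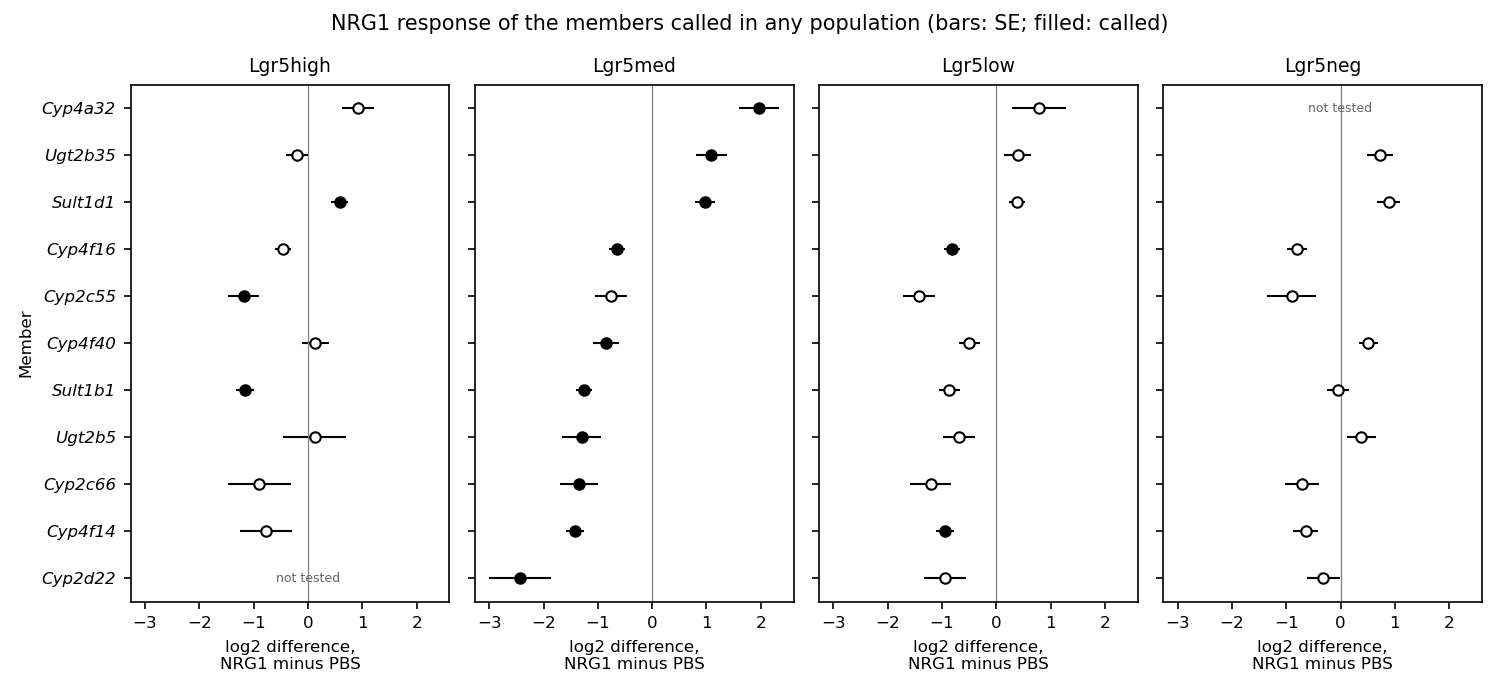
Log2 difference of NRG1 minus PBS mice, with its SE, for the 11 members called in at least 1 population, by population; filled points are called at an adjusted p under 0.05. Sult1b1, Cyp4f14 and Cyp4f16 lie at or below 0 in all 4 populations and Sult1d1 above 0 in all 4; Cyp2d22 was not tested in Lgr5high and Cyp4a32 not in Lgr5neg cells.

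A pair of neighbouring sulfotransferase genes moved in opposite directions. Sult1b1 had 9.65, 14.5 and 10.2 CPM in NRG1 Lgr5high cells, against 28.8, 26.7 and 22.2 CPM in PBS Lgr5high cells. In Lgr5med cells it had 15.4, 16.6 and 17.2 CPM in NRG1 mice, against 37.7, 34.0 and 47.4 CPM in PBS mice. All NRG1 libraries lay below all PBS libraries in both gates, and the gene fell by 1.16 ± 0.17 in Lgr5high (edgeR adjusted p = 0.000941) and by 1.25 ± 0.15 in Lgr5med cells (edgeR adjusted p = 0.000249) on the log2 scale. Both calls were kept in all 6 fits that left out 1 library. In Lgr5low cells it had 56.0, 34.4 and 53.6 CPM in NRG1 mice, against 95.3, 70.7 and 96.5 CPM in PBS mice, groups that did not overlap either but were not called (-0.86 ± 0.19, edgeR adjusted p = 0.0732). In Lgr5neg cells 469, 397 and 545 CPM in NRG1 mice overlapped with 596, 374 and 493 CPM in PBS mice (-0.04 ± 0.20, edgeR adjusted p = 0.964).

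Sult1d1 had 37.0, 29.5 and 29.7 CPM in NRG1 Lgr5high cells, against 22.6, 16.6 and 25.5 CPM in PBS Lgr5high cells, and 35.9, 40.6 and 61.6 CPM in NRG1 Lgr5med cells, against 23.8, 21.3 and 26.1 CPM in PBS Lgr5med cells. Here the NRG1 libraries were the higher ones, without overlap. It rose by 0.59 ± 0.16 in Lgr5high (edgeR adjusted p = 0.0321) and 0.98 ± 0.19 in Lgr5med cells (edgeR adjusted p = 0.00796). The Lgr5high call was lost in 5 of 6 fits that left out 1 library and kept without PBS replicate 3 (adjusted p of 0.0572 to 0.136 where lost), and the Lgr5med call was lost without PBS replicate 2 (0.90, edgeR adjusted p = 0.0503). In Lgr5neg cells it had 205, 223 and 327 CPM in NRG1 mice, against 149.6, 107 and 154 CPM in PBS mice, without overlap and not called (0.88 ± 0.20, edgeR adjusted p = 0.103).

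**Figure D5:**
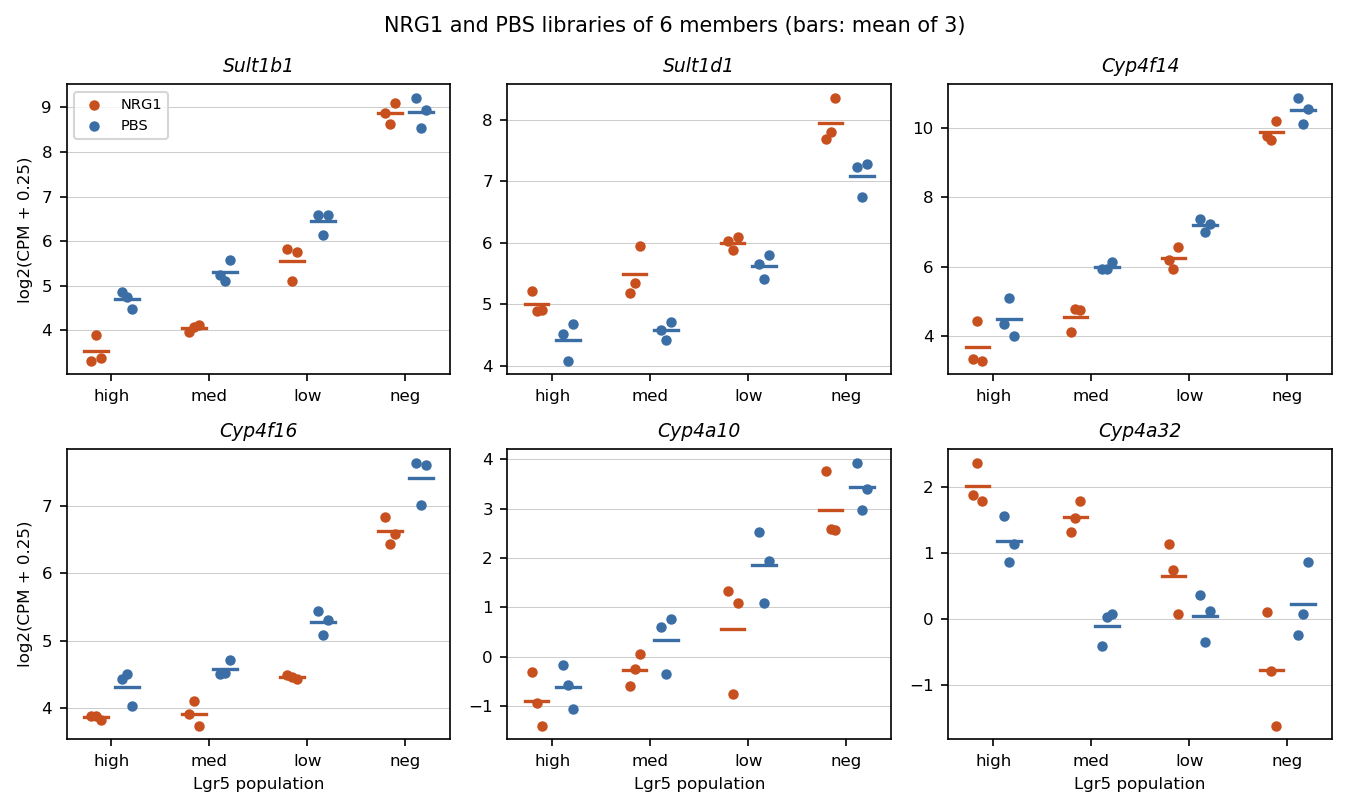
Level of 6 members in every library as log2(CPM + 0.25), by population, NRG1 left of PBS, with bars at the mean of 3 mice. In Lgr5high and Lgr5med cells Sult1b1 is lower and its neighbour Sult1d1 higher in NRG1 mice. Cyp4f14 is lower in Lgr5med and Lgr5low cells, Cyp4f16 is lower in every population, and Cyp4a32 is higher in Lgr5med cells.

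The 2 genes lie on the minus strand of chromosome 5 (GRCm38), Sult1b1 at chr5:87513339-87538195 and Sult1d1 at chr5:87554645-87569027, 16.4 kb apart, and no 76-base stretch of their exons is shared with another gene. Their windows are shown because neighbours moved apart under one treatment. Sult1b1 (chr5:87538196-87538445) holds the nuclear receptor motif AGGTCA on the other strand, 123 bases before the start. Sult1d1 (chr5:87569007-87569256) holds the HNF1 motif GTTAAT at 79 bases, the CDX motif TTTATG at 231 bases and the xenobiotic response core GCGTG, on the other strand, at 47 bases before the start.
Sult1b1: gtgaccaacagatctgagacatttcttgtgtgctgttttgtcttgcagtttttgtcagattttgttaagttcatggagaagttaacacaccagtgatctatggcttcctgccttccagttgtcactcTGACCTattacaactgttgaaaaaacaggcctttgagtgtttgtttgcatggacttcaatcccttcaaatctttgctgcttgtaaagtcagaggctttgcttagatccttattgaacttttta
Sult1d1: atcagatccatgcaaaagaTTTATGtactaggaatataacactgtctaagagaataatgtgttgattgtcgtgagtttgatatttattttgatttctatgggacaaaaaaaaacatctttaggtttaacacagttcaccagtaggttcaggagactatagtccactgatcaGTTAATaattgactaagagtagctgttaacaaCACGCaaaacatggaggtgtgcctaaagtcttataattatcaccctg

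Of the Cyp4f genes, which sit together on chromosome 17, Cyp4f14 had 17.1, 27.2 and 26.3 CPM in NRG1 Lgr5med cells, against 61.1, 60.9 and 69.6 CPM in PBS Lgr5med cells, and fell by 1.42 ± 0.16 on the log2 scale (edgeR adjusted p = 0.000249), in all 6 fits that left out 1 library. In Lgr5low cells it had 73.4, 61.3 and 94.8 CPM in NRG1 mice, against 167, 128 and 149 CPM in PBS mice (-0.95 ± 0.17, edgeR adjusted p = 0.0369). The groups stood apart in both gates and overlapped in Lgr5high cells, where the gene was not called (-0.77 ± 0.48, edgeR adjusted p = 0.431). A fit with the replicate number as a block did call Cyp4f14 lower in Lgr5high cells (-0.80 ± 0.15, edgeR adjusted p = 0.00207). Cyp4f16 had 14.8, 16.9 and 13.1 CPM in NRG1 Lgr5med cells, against 22.6, 22.8 and 26.1 CPM in PBS Lgr5med cells (-0.65 ± 0.15, edgeR adjusted p = 0.0140), and 22.2, 21.7 and 21.3 CPM in NRG1 Lgr5low cells, against 43.0, 33.8 and 39.3 CPM in PBS Lgr5low cells (-0.82 ± 0.15, edgeR adjusted p = 0.0369). In neither gate did its groups overlap. The NRG1 libraries were also the lower ones, without overlap and not called, in the other gates. There it had 14.5, 14.5 and 14.0 CPM in NRG1 and 21.3, 22.4 and 16.1 CPM in PBS Lgr5high cells. In Lgr5neg cells it had 113, 86.4 and 95.7 CPM in NRG1 and 199, 128 and 193 CPM in PBS mice. The Lgr5med call of Cyp4f16 was lost without PBS replicate 2 (adjusted p 0.0520) or PBS replicate 3 (0.0855). In Lgr5low cells Cyp4f14 kept its call only without NRG1 replicate 3, and Cyp4f16 lost it in all 6 fits, with an adjusted p of up to 0.276 for each. Cyp4f40 fell in Lgr5med cells (-0.85 ± 0.24, edgeR adjusted p = 0.0393), a call kept only without PBS replicate 2. In Lgr5neg cells it ran the other way, with 92.7, 126 and 149 CPM in NRG1 and 81.0, 88.2 and 88.9 CPM in PBS mice. These groups did not overlap. It was not called there, but the fit with the replicate number as a block called it higher (0.49, edgeR adjusted p = 0.00672).

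Cyp4a32, of the fatty acid omega-hydroxylases, had 2.25, 2.65 and 3.19 CPM in NRG1 Lgr5med cells, against 0.501, 0.775 and 0.799 CPM in PBS Lgr5med cells, and rose by 1.97 ± 0.37 (edgeR adjusted p = 0.00527), kept in all 6 fits that left out 1 library. Its relative Cyp4a10, 67.3 kb away on chromosome 4, had 0.413, 0.597 and 0.786 CPM in NRG1 and 1.27, 0.530 and 1.46 CPM in PBS Lgr5med cells, which overlapped. Of the 76-base stretches of Cyp4a32, 18.8% occur in Cyp4a10 and 27.5% in any other gene, so that reads may have been split between copies. Also lower in NRG1 Lgr5med cells were Cyp2d22 (-2.43 ± 0.57, edgeR adjusted p = 0.0171), Cyp2c66 (-1.34 ± 0.35, edgeR adjusted p = 0.0294) and Ugt2b5 (-1.30 ± 0.36, edgeR adjusted p = 0.0354). Ugt2b35 was higher (1.09 ± 0.28, edgeR adjusted p = 0.0309). Without 1 library these 4 were lost in 3 (Cyp2d22, without NRG1 1, NRG1 2 or PBS 2), 5 (Cyp2c66, kept without PBS 2), 5 (Ugt2b5, kept without PBS 1) and 4 fits (Ugt2b35, without NRG1 2, NRG1 3, PBS 2 or PBS 3), with adjusted p up to 0.0935, 0.122, 0.211 and 0.122.

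Cyp2c55, an arachidonic acid hydroxylase of the gut, had 1.91, 2.77 and 1.66 CPM in NRG1 Lgr5high cells, against 6.43, 4.61 and 3.63 CPM in PBS Lgr5high cells, without overlap (-1.19 ± 0.29, edgeR adjusted p = 0.0203). The call was lost without NRG1 replicate 1, NRG1 replicate 3, PBS replicate 1 or PBS replicate 2, with an adjusted p of up to 0.0968. The NRG1 and PBS libraries of Cyp2e1 did not overlap in Lgr5med (1.35 ± 0.47, edgeR adjusted p = 0.135) or Lgr5low cells (1.47 ± 0.36, edgeR adjusted p = 0.105), and its call there depended on the fit. With no filter on low counts it was called in both (edgeR adjusted p = 0.00035 and 0.00872), and DESeq2 called it in Lgr5low cells (1.47, adjusted p = 0.0187). The fit with the replicate number as a block also called it in both. It gave 1.48 ± 0.21 in Lgr5med (edgeR adjusted p = 3.16e-05) and 1.52 ± 0.35 in Lgr5low cells (edgeR adjusted p = 0.0218).

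Markers of differentiation moved with some of these values. In Lgr5med cells the enterocyte list summed to 1140 to 1768 CPM in NRG1 and 2119 to 2542 CPM in PBS mice, and 4 of its 10 genes were called lower, Fabp1 by -1.55 and Alpi by -1.23. The stem cell list summed to 1373 to 1779 CPM in NRG1 and 715 to 1470 CPM in PBS Lgr5med cells, and to 508 to 852 CPM in NRG1 and 308 to 350 CPM in PBS Lgr5low cells. Members that fell under NRG1 in Lgr5med cells, such as Cyp4f14 and Sult1b1, are higher in later gates, while Sult1d1 rose although it is higher there too. In Lgr5high cells, beside the calls of Sult1b1, Sult1d1 and Cyp2c55, the cycling genes Mki67 (0.71) and Top2a (0.59) were called higher, and of 6 Paneth markers Defa17 (edgeR adjusted p = 0.00635) and Defa24 (edgeR adjusted p = 0.0151) were called lower. The Paneth list summed to 1137 to 1873 CPM in NRG1 and 1823 to 3178 CPM in PBS Lgr5high cells, and the immune list to 14.0 to 40.3 CPM in NRG1 and 44.6 to 84.7 CPM in PBS Lgr5high cells. The part of the markers in the member differences was not tested.

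In Lgr5low and Lgr5neg cells same-numbered NRG1 and PBS libraries deviated together, and a fit with the replicate number as a block called more members. In Lgr5low cells it called 10, against 1.31% of all genes higher and 2.99% lower, with Cyp2e1 higher (1.52, edgeR adjusted p = 0.0218) and 9 lower, among them Sult1b1 (-0.88, edgeR adjusted p = 0.000746), Cyp4f14 (-0.96, edgeR adjusted p = 0.000746) and Cyp2c55 (-1.39, edgeR adjusted p = 0.00419). In Lgr5neg cells it called 11, against 2.49% of all genes higher and 4.55% lower. Without the block edgeR called 0 there, with 8 of 41 members at an unadjusted p under 0.05, against 10.6% of all genes, and DESeq2 called 2 (Cyp4f16 and Sult1d1), against 0.864% of its genes. Of the 11, 4 were higher, led by Sult1d1 (0.87, edgeR adjusted p = 1.81e-05) and Cyp2s1 (0.49, edgeR adjusted p = 0.00412), and 7 lower, led by Cyp4f16 (-0.79, edgeR adjusted p = 2.68e-05), Cyp4b1 (-0.76, edgeR adjusted p = 6.91e-05) and Cyp4v3 (-0.60, edgeR adjusted p = 0.000694).

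Whether the NRG1 response differed from that of Lgr5high cells was tested in 1 model of all 24 libraries. By edgeR 0 of 51 members were called for Lgr5med, for Lgr5low or for Lgr5neg cells, where 0%, 0% and 0.0532% of 15045 genes were called. At an unadjusted p under 0.05 there were 4, 3 and 6 members (7.84%, 5.88% and 11.8%), against 3.83%, 4.49% and 8.66% of all genes, and DESeq2 called 0, 0 and 1 members, against 0%, 0% and 0.188% of its genes. That 1 was Sult1b1, whose response in Lgr5neg minus Lgr5high cells was 1.12 by DESeq2 (adjusted p = 0.0409) and 1.12 ± 0.28 by edgeR (adjusted p = 0.135). These fits held no term for the mouse. Blocked by mouse, edgeR called 0%, 0.00665% and 0.432% of all genes, and no member.

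Genes that serve these enzymes were compared over the same gates. In Lgr5neg against Lgr5high cells, where 32% of all genes were called higher in each treatment and 33.5% (NRG1) and 35.4% (PBS) lower, 7 of 8 electron donor and heme genes tested were called higher in each treatment, with Por at 2.79 in NRG1 and 2.85 in PBS mice (log2). Of 8 cofactor genes 5 were called higher in each, 1 lower in NRG1 and 2 lower in PBS mice. Ugdh, which makes the UGT cofactor, differed by 3.72 and 3.76, and Papss2, which makes the sulfate donor, by 5.99 in each. Of 18 regulators 11 were called higher and none lower in NRG1 mice and 13 higher and 1 lower in PBS mice, with CAR (Nr1i3) at 5.46 and 4.33, FXR (Nr1h4) at 3.37 and 3.01 and PXR (Nr1i2) at 2.12 and 1.96. Of 28 other phase I enzymes 23 were called higher in each, 1 lower in NRG1 and 3 lower in PBS mice, and of 6 efflux genes 4 were called higher and 2 lower in each, a share lower that is near that of all genes.

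Under NRG1, Ugdh rose in Lgr5high (0.66, edgeR adjusted p = 0.0126) and Lgr5med cells (0.62, edgeR adjusted p = 0.0121). Nr1h4 fell by 0.59 in Lgr5high and 0.84 in Lgr5med cells, and Ppara by 0.79 and 0.63. Por fell by 0.46 in Lgr5med cells (edgeR adjusted p = 0.0487). Of 27 other phase I enzymes tested in Lgr5med cells, where 5.79% of all genes were called lower and 3.76% higher, 8 were lower, among them the retinaldehyde dehydrogenase Aldh1a1 (-1.66, edgeR adjusted p = 7.05e-05), the quinone reductase Nqo1 (-1.30) and the carboxylesterases Ces1f (-1.71) and Ces2b (-2.28), and Aldh3a2 was higher (0.43). No gene of these 5 lists was called in Lgr5low or Lgr5neg cells.

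The promoter windows of 48 members were found in RefSeq. TATAAA occurred in 27.1% of them on either strand, against 12.4% of all 32851 windows of that length. The shares were 20.8% against 6.43% for GTTAAT (HNF1), 27.1% against 12.6% for CAAAGT (HNF4), 22.9% against 9.99% for the motif of GATA factors, written AGATAA, and 27.1% against 14.0% for AGGTCA (nuclear receptors). TTTATG (CDX) and GCGTG (the xenobiotic response core) were less frequent, 6.25% against 10.8% and 18.8% against 28.2%. No motif lies whole inside another on either strand. These are counts of letters, and many members are copies of one another that lie side by side.

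Ugt1a7c, Cyp2d26, Cyp4f13, Ugt2b36 and Cyp2u1, given no values above, were also called higher in Lgr5neg than in Lgr5high cells in both treatments. A further 8 members were called in no comparison. Cyp1a1, Cyp2c67 and Cyp2j5 were under the filter in every fit, and Cyp2r1, Cyp2t4, Cyp2w1, Cyp3a59 and Sult6b1 were tested and called in no comparison.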

How the data were processed

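RNA of 24 sorted libraries (15 ng each, NuGEN Ovation V2, single reads of 76 bases) was sequenced per the labels' protocols. The authors aligned reads with STAR to GRCm38 and counted them per gene with featureCounts, per the submitters' processing notes; the sources used here do not give versions, annotation, strand or multimapping settings. Raw counts make up the deposited table. Members and lists were chosen with earlier results of these data known. Counts were tested with edgeR 4.0.16 (R 4.3.3; quasi-likelihood, robust, TMM scaling, filterByExpr with a minimum count of 10 and a total of 15), with Benjamini-Hochberg adjustment over all genes tested and a threshold of 0.05; DESeq2 1.42.0 was an alternative. Each population gave a fit of NRG1 against PBS (6 libraries), populations were compared within each treatment, and responses in 1 model of 24 libraries. None of these fits held a term for the mouse. Plots add 0.25 CPM before log2. Gene positions and exon lengths come from GENCODE vM21, which 53 of 54 members matched. Counting intervals are at 95% and cover counting error only. The scripts were tested on simulated data.

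Named members were called members whose groups did not overlap, ordered by adjusted p or size of difference, and the 15 with the highest mean level. Same-numbered NRG1 and PBS libraries were taken as paired where every correlation of their deviations from the group means was over 0.1. These were 0.173, 0.131 and 0.171 in Lgr5low and 0.180, 0.167 and 0.102 in Lgr5neg, but 0.085, 0.227 and 0.070 in Lgr5high and 0.207, 0.070 and 0.155 in Lgr5med cells. The same mice gave every gate, so this cut-off divides gates and not mice. Populations of 1 mouse are paired by the labels.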

Additional observations from a re-analysis of the deposited data

How the results depend on the processing

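No member value called in the main or an alternative run changed sign between the 2 runs, and sign changes of uncalled values were not counted. Of the alternative values of members, 1986 kept their side of the threshold under NRG1, 51 lost and 57 gained a call; between populations these were 3183, 120 and 32, and for the differences in response 1678, 0 and 4. In Lgr5high cells 3 calls became 5 with no filter on low counts, 5 with the replicate block (Cyp4f14 at -0.80, edgeR adjusted p = 0.00207, and Cyp4v3 added), where the numbers did not pair the samples, and 1 with all 24 libraries in 1 model. In Lgr5low cells 2 (0.443%) became 6 by DESeq2 (1.28%), 8 with no filter (2.16%) and 10 with the replicate block (4.30%). In Lgr5neg cells 0 (0.328%) became 2 by DESeq2 (0.864%), 4 with no filter (1.26%), 11 with the replicate block (7.05%) and 2 with all 24 libraries (2.03%). In Lgr5med cells 10 (9.55%) became 13 with the replicate block (17.4%), where the pairing cut-off was not met either. The differences in response gave 1, 1 and 1 calls with no filter for Lgr5med, Lgr5low and Lgr5neg cells (0.0638%, 0.131% and 0.563%). DESeq2 gave 1 for Lgr5neg cells (0.188%). The causes were not tested. Blocked by mouse, the population comparisons gave 14, 28, 35 and 43 calls in PBS mice (Lgr5med over Lgr5high, Lgr5low over Lgr5med, Lgr5neg over Lgr5low and Lgr5neg over Lgr5high) and 37 and 41 in NRG1 mice for the last 2 of these. The shares of all genes called were 12.4%, 10.7%, 58.0% and 69.5% in PBS and 60.3% and 68.7% in NRG1 mice.

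Leaving out 1 library at a time gave 1 to 6 calls under NRG1 in Lgr5high, 5 to 9 in Lgr5med, 0 to 3 in Lgr5low and 0 to 2 in Lgr5neg cells. Of all genes it called 3.59% to 8.61%, 3.05% to 8.07%, 0.0073% to 0.52% and 0% to 0.733%. Between populations it gave 6 to 13, 17 to 26, 32 to 37 and 41 to 45 calls in PBS mice in the same order, and 34 to 36 and 39 to 42 in NRG1 mice. For the differences in response it gave 0 to 0, beside 0.00649% to 0.0911% of all genes for Lgr5neg cells. Members of under 1 CPM rest on few reads, and a difference there was often not detectable at this depth.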
